A study of Mus musculus with 6 samples.

Results

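Complement and coagulation genes were examined in RNA sequencing counts of mouse liver. The set of 43 genes was chosen by symbol from the plasma complement and blood clotting cascades, out of 22609 genes in the files, and the macrophage-made C1qa, C1qb and C1qc were contrasted with the rest. All 43 were found, and 42 passed the filter on low counts. The study compared adult livers of 3 Igfbp7 knockout samples (Igfbp-7-/-, made with Cre and loxP) with 3 wild type (WT) samples, all C57BL/6. Igfbp7 encodes a secreted protein of the insulin-like growth factor binding family. The cell type in which Cre acted, sex, exact age and feeding state are not stated. It is also not stated whether replicates were separate animals, so the p-values measure only the spread between these samples, which may be technical.

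Complement is a set of plasma proteins that mark microbes and dying cells for removal. It is started by C1q bound to antibody or debris (the classical pathway), by mannose-binding lectins (the lectin pathway) or by spontaneous turnover of C3 (the alternative pathway), and all routes meet at C3 and end in the membrane attack complex. Coagulation is a parallel cascade of proteases that ends in thrombin, which turns fibrinogen into fibrin. Hepatocytes secrete most of these proteins, while C1q is made mainly by macrophages, which in liver are the Kupffer cells. Complement factor D (Cfd, adipsin) is a product of adipocytes.

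Libraries held 18912701 to 22419411 gene counts in knockout livers and 16712568 to 21478524 in WT livers. Igfbp7 had 5, 2 and 9 counts in knockout livers and 1438, 1705 and 1055 in WT livers, which matches the labels. Levels are given as CPM, the count divided by the scaled library size. Hepatocyte markers, 11 of 12 found in the files, summed to 111119 to 135824 CPM in knockout livers and 102275 to 122538 CPM in WT livers. A clock score was the mean log2 CPM of evening-phase clock genes minus that of morning-phase ones. It was 3.63, 4.19 and 3.99 in knockout livers and -0.05, 2.85 and 3.31 in WT livers. WT replicate 1 was far the lowest. Every knockout library was above every WT library, so clock phase and genotype cannot be fully told apart. At an unadjusted edgeR p under 0.05, 5 of 8 evening-phase genes, 62.5%, were higher, against 8.1% of all genes. Of 5 morning-phase genes 3, 60%, were lower, against 7.35% of all genes. The lowest count of a tested member in any library was 484. The members took 4.28% to 5.01% of gene counts in knockout livers and 4.89% to 5.49% in WT livers.

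C1qa, C1qb and C1qc were at 64.6%, 59.4% and 60.2% of their WT level in knockout livers, while the other members were centred near no difference. The median log2 fold change (knockout over WT) was -0.73 for the C1q genes and -0.02 for the 39 other tested members, a difference of -0.71. Over all 12522 tested genes it was 0.00133. No member passed an adjusted p of 0.05 in edgeR's quasi-likelihood test with Benjamini-Hochberg adjustment over all tested genes (0 of 42, against 0.216% of all genes, 0.0878% lower and 0.128% higher). At an unadjusted p under 0.05 there were 6 of 42 members, 14.3%, against 15.4% of all genes. C1qa, C1qb, C1qc and Mbl1 were lower, against 7.35% of all genes lower, and Mbl2 and F7 were higher, against 8.1% of all genes higher. DESeq2 called 3 of 42 members, 7.14%, the C1q genes, all lower, against 3.41% of all genes (1.61% lower and 1.8% higher). The lowest and highest values of the genotypes did not overlap in 7 of 42 members, 16.7%, against 20.7% of all genes. At the unadjusted threshold the share of members was near that of all genes, and for groups without overlap it was below it.

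**Figure D1:**
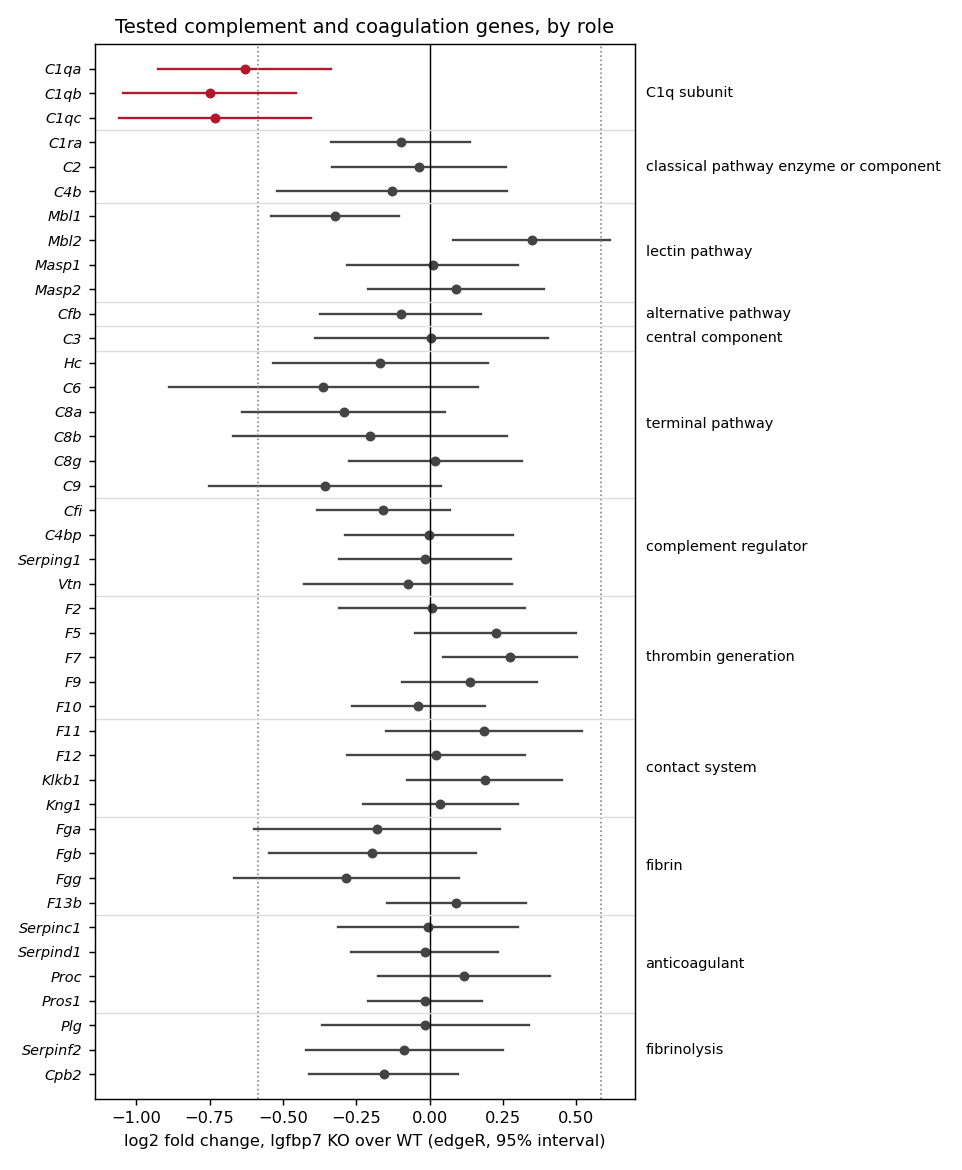
Log2 fold change of each of the 42 tested members, knockout over WT, with its 95% interval from edgeR, grouped by role. Dotted lines mark a 1.5-fold difference in either direction; the C1q genes (red) have estimates of -0.75 to -0.63, and the other members lie between -0.36 and 0.35.

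C1q has A, B and C chains that are encoded by C1qa, C1qb and C1qc. C1qb had 39.4, 34.4 and 45.7 CPM in knockout livers, against 75.8, 64.4 and 61.0 CPM in WT livers, each in the order of replicates 1 to 3. The groups did not overlap, with knockout replicate 2 lowest. Its log2 fold change was -0.75 ± 0.13 (SE, 95% interval -1.04 to -0.46), with an edgeR adjusted p of 0.0620. C1qa had 37.8, 29.6 and 39.9 CPM in knockout livers, against 59.1, 57.1 and 50.04 CPM in WT livers. Knockout replicate 2 was again lowest and the groups were apart, at -0.63 ± 0.13 on the log2 scale (SE, edgeR adjusted p = 0.0847). C1qc had 36.3, 26.4 and 36.0 CPM in knockout livers, against 61.6, 52.3 and 50.1 CPM in WT livers. It too was lowest in knockout replicate 2 and without overlap, at -0.73 ± 0.14 (SE, edgeR adjusted p = 0.0801). Over the 17 alternatives run, the adjusted p ranged from 0.00242 to 0.586 for C1qa, from 0.000112 to 0.518 for C1qb and from 0.000732 to 0.576 for C1qc. Without WT replicate 1, the library with the low clock score, C1qa, C1qb and C1qc had log2 fold changes of -0.58, -0.65 and -0.64. With the clock score as a covariate these were -0.51, -0.57 and -0.54, and the adjusted p was at the top of each range. The part of the clock difference in these values was not tested further.

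**Figure D2:**
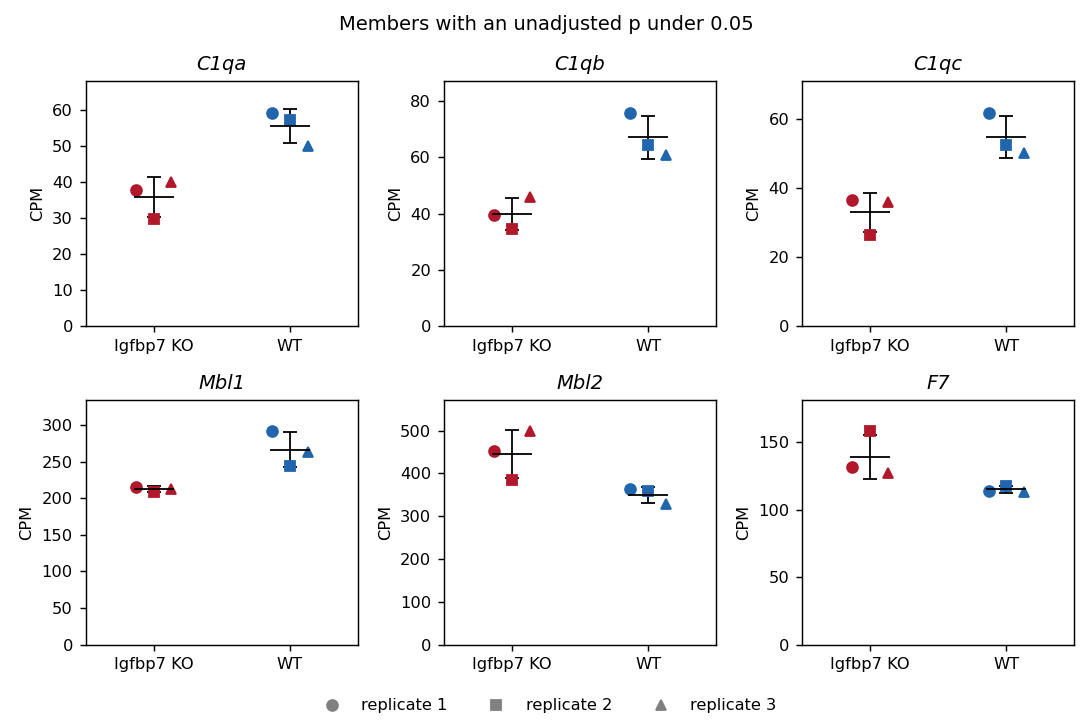
CPM of C1qa, C1qb, C1qc, Mbl1, Mbl2 and F7, the members with an unadjusted p under 0.05, in 3 knockout and 3 WT libraries. Each replicate has its symbol, and bars give mean and SD. Knockout and WT values do not overlap in any panel, with Mbl2 and F7 higher and the others lower in the knockout.

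The C1q genes lie next to each other on chromosome 4 in the order C1qb, C1qc, C1qa in assembly GRCm38.p6. The promoters of C1qb and C1qc are shown because the members that stood apart are neighbours. C1qa, which also stood apart, had no promoter entry and was not searched. Sequences are from RefSeq in that assembly, from 250 bases before to 50 bases after the annotated start, written 5′ to 3′ along the gene, and 33 of the 43 members had an entry. The C1qb window is chr4:136886151-136886450, minus strand, and the C1qc window is chr4:136892865-136893164, minus strand. Capitals mark GAGGAA or its reverse complement TTCCTC, a core bound by the myeloid factor PU.1.
C1qb: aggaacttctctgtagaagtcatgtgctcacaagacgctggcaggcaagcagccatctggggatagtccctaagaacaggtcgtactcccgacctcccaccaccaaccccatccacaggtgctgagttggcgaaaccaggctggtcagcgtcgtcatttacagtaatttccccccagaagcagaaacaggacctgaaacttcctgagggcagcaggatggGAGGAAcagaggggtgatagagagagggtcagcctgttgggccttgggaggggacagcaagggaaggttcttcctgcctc
C1qc: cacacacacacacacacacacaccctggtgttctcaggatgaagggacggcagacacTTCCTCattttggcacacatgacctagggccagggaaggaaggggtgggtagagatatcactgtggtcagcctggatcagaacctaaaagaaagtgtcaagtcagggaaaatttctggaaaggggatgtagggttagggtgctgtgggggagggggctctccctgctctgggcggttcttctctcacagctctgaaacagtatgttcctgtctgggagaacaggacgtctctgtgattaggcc
GAGGAA, searched on both strands, lay at bases -30 to -25 from the start of C1qb, and on the opposite strand at bases -193 to -188 of C1qc. It was in 3 of the 31 windows of the other members and in 28.3% of 32851 RefSeq windows of that length. These other members were C1ra, F7 and Fgb. Fgb, whose window is printed below, had 2 copies, against 1 each in C1qb and C1qc. A match of letters is no evidence of binding.

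Between genes, levels can be compared only per length. Per kilobase of exon, C1qa averaged 34.4 ± 5.26, C1qb 36.6 ± 5.21 and C1qc 27.4 ± 4.68 CPM per kilobase in knockout livers (SD, n = 3). In WT livers C1qa averaged 53.3 ± 4.57, C1qb 61.6 ± 7.11 and C1qc 45.5 ± 5.08 CPM per kilobase (SD, n = 3). C1qc was the lowest chain in 6 of 6 libraries. By WT level per kilobase the C1q genes ranked 37, 38 and 40 of 43 members. Fibrinogen gamma (Fgg) ranked 1, with 1715 ± 242 CPM per kilobase in knockout livers and 2089 ± 287 in WT livers (SD, n = 3).

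Markers listed for Kupffer cells were also lower. Some of them, such as Csf1r, Cd68, Lyz2 and Aif1, are shared with other myeloid cells, so the list does not single out Kupffer cells. Of 20 markers, none of them a C1q gene, 18 had a negative log2 fold change, 17 of these at an unadjusted p under 0.05, 85% of the list against 7.35% of all genes lower. None passed over all genes by edgeR, and DESeq2 called 14, all lower, against 1.61% of all genes lower. Their median was -0.66, and their summed level was 876 to 1154 CPM in knockout livers and 1222 to 1328 CPM in WT livers, with no marker at 0. Without knockout replicate 1, 2 or 3 their median was -0.59, -0.57 or -0.85. Cd5l, a secreted macrophage protein, had 92.7, 78.0 and 130.2 CPM in knockout livers, against 184, 183 and 174 CPM in WT livers. Its groups were apart, at -0.85 ± 0.17 on the log2 scale (SE, edgeR adjusted p = 0.0823). Aif1, a macrophage calcium-binding protein, was at -0.996 ± 0.19, Ctss, a lysosomal protease, at -0.77 ± 0.15, and Mpeg1, a pore-forming macrophage protein, at -0.78 ± 0.16 (SE), each without overlap. The 2 positive markers, named after their values were seen, were Cd163, a scavenger receptor, and Slc40a1, an iron exporter. Cd163 had 23.2, 16.0 and 39.8 CPM in knockout livers, against 20.8, 17.8 and 25.6 CPM in WT livers. Slc40a1 had 267, 258 and 289 CPM in knockout livers, against 229.9, 253 and 236 CPM in WT livers. Only the second of these was apart between the genotypes.

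Relative to the WT mean, the mean log2 level of the C1q genes was -0.63, -0.97 and -0.54 in knockout replicates 1 to 3 and 0.15, -0.02 and -0.13 in WT replicates 1 to 3. That of the Kupffer markers was -0.71, -0.91 and -0.28 in knockout livers and 0.07, 0.06 and -0.13 in WT livers. C1q genes minus Kupffer markers gave 0.08, -0.06 and -0.25 in knockout livers and 0.09, -0.08 and -0.0037 in WT livers, with overlap. Fewer cells of a type and less RNA per cell cannot be told apart in bulk tissue, and the part of either in the C1q difference was not tested. Other cell types had medians of -0.08 over 10 sinusoidal endothelial markers, -0.11 over 9 stellate cell markers and 0.15 over 11 hepatocyte markers. Of the endothelial markers 6 were negative and 4 positive. Among them 1, Cdh5, was lower at an unadjusted edgeR p under 0.05, 10% against 7.35% of all genes (-0.41 ± 0.11, SE). Neutrophil and monocyte markers summed to 7.10 to 8.44 CPM in knockout livers and 9.91 to 12.7 CPM in WT livers, without overlap. Only 2 of the 5 were tested, with a median of -0.51 and both negative. Of these Plac8 was apart between the genotypes, at -0.55 ± 0.13 (SE), and Ccr2 overlapped. A lower level was thus not limited to the Kupffer list. Blood cell markers summed to 0.344 to 1.09 CPM in knockout livers and 0.701 to 0.957 CPM in WT livers. Adipocyte markers summed to 13.5 to 17.8 CPM in knockout livers and 12.7 to 14.6 CPM in WT livers. Among these, Cidec was at 0.71 ± 0.22 (SE, edgeR adjusted p = 0.180) and Fabp4 at -0.06 ± 0.19 (SE). The blood cell genes Hba-a1 and Hbb-b1 and the adipocyte gene Retn had 0 counts in every library. A gene at 0 does not show that its cell type was absent.

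**Figure D3:**
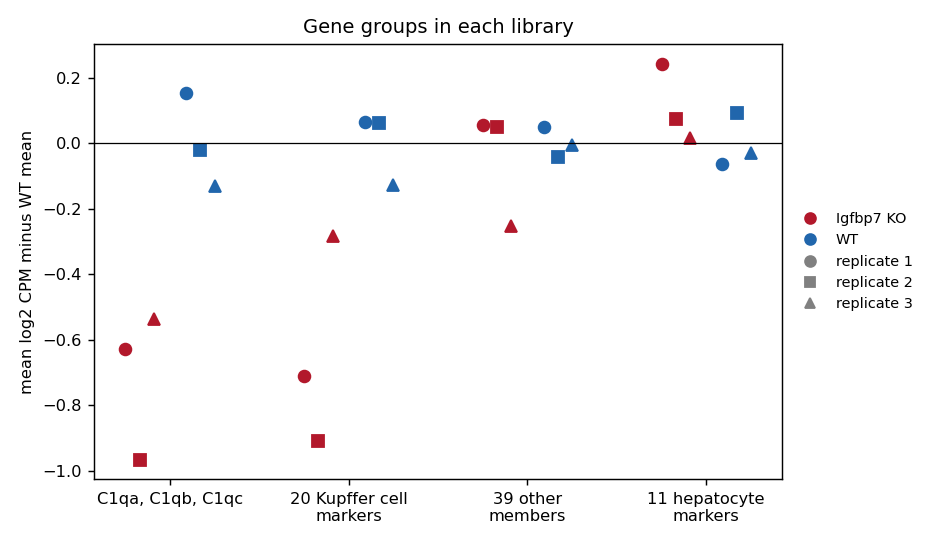
Mean log2 CPM relative to the WT mean for the C1q genes, 20 Kupffer cell markers, the 39 other tested members and 11 hepatocyte markers, in each knockout and WT library. The C1q genes and Kupffer markers are lower in all 3 knockout libraries than in any WT library, and knockout replicate 3 is the lowest library for the other members, at -0.25.

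By Pearson correlation of log2 CPM over the 6 libraries, the 5 genes most like C1qb were Slc7a8 (r = 0.993), Cd300lb (0.992), Impa1 (0.991), Zc4h2 (0.991) and Rab11fip5 (0.990). C1qc and C1qa stood at ranks 34 and 36 of 12521 genes, each with r = 0.980. The 6 libraries share the genotype difference, and the values describe the order of the libraries only.

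In the lectin pathway, the soluble pattern receptors Mbl1 and Mbl2 differed in direction. Mbl1 had 216, 208 and 213 CPM in knockout livers, against 291, 244 and 263 CPM in WT livers. The knockout libraries lay close together and below every WT library, at -0.32 ± 0.10 on the log2 scale (SE, edgeR adjusted p = 0.170). Mbl2 had 453, 385 and 498 CPM in knockout livers, against 363, 358 and 329 CPM in WT livers. Every knockout library was above every WT library, at 0.35 ± 0.12 (SE, edgeR adjusted p = 0.215). The ratio of Mbl2 to Mbl1 CPM was 2.10, 1.85 and 2.34 in knockout livers and 1.25, 1.47 and 1.25 in WT livers, without overlap, a pair singled out after its values were seen. With the clock score as a covariate Mbl1 was at -0.21 and Mbl2 at 0.42 on the log2 scale, and without knockout replicate 3 they were at -0.33 and 0.26. Masp1, a lectin-associated protease, had 99.9 to 141 CPM in knockout livers and 110.3 to 122 CPM in WT livers. Masp2, the protease that cleaves C4 and C2, had 179 to 246 CPM in knockout livers and 189.7 to 220.5 CPM in WT livers. Both overlapped between genotypes, and in GRCm38.p6 Masp1 overlaps Rtp4 and Masp2 overlaps Tardbp.

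The promoters of Mbl1 (chr14:41151206-41151505, plus strand) and Mbl2 (chr19:30232678-30232977, plus strand) are shown because these related genes differed in direction. The windows are of the same kind and build as above, and capitals mark the longest run they share.
Mbl1: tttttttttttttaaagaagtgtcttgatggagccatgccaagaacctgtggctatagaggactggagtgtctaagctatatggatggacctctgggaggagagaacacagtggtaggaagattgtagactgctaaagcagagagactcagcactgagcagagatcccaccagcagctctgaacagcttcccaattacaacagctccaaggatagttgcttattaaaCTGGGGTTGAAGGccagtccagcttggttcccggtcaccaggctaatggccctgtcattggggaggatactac
Mbl2: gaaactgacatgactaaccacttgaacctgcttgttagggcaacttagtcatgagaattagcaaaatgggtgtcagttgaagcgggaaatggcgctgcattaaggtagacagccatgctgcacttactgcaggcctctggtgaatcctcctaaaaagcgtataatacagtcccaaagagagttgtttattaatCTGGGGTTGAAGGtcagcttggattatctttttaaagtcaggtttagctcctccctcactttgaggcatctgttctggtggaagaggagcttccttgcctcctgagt
The shared run of 13 bases lay at bases -23 to -11 from the start of Mbl1 and at -57 to -45 from that of Mbl2. It was in 3 of the 32851 windows.

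The classical pathway components after C1q had log2 fold changes of -0.13 to -0.04. C1ra, a protease bound to C1q, had 198, 188 and 157 CPM in knockout livers and 191, 198 and 192 CPM in WT livers. C2, the protease of the C3 convertase, had 181, 204 and 142 CPM in knockout livers and 174, 179.8 and 187 CPM in WT livers. C4b, cleaved by the activated C1 complex, had 975.3, 1011 and 712 CPM in knockout livers and 1168, 849 and 933 CPM in WT livers. All 3 overlapped between genotypes, and knockout replicate 3 was the lowest library for each. C4b has a near-identical copy, C4a. Reads placed on both are not counted for genes, so the level of C4b may be too low. C4a had 58.4, 36.5 and 46.3 CPM in knockout livers and 27.5, 43.3 and 52.5 CPM in WT livers (0.20 ± 0.24, SE), with overlap.

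C3, on which the pathways meet, had 8589, 6545 and 6134 CPM in knockout livers and 7007, 7002 and 7180.2 CPM in WT livers. Its values spread more widely in knockout than in WT livers, and the groups overlapped. Cfb, the protease of the alternative pathway, had 1243 to 1481 CPM in knockout livers and 1356 to 1479.5 CPM in WT livers. Cfd, which activates Cfb, had 0, 1 and 4 counts in knockout livers and 2, 1 and 1 counts in WT livers, too few to test. Cfi, which inactivates C3b and C4b, had 717, 668 and 643 CPM in knockout livers and 773, 734 and 756 CPM in WT livers. Its groups did not overlap, but its log2 fold change was -0.16 ± 0.10 (SE, edgeR adjusted p = 0.498). C4bp, a cofactor of Cfi, had 611 to 686 CPM in knockout livers and 592 to 759.8 CPM in WT livers. Serping1, the C1 inhibitor, had 825 to 1100.2 CPM in knockout livers and 934 to 999 CPM in WT livers. Vtn, vitronectin, which blocks the membrane attack complex, had 2117 to 3019 CPM in knockout livers and 2623 to 2828 CPM in WT livers. These 3 regulators overlapped between genotypes.

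The terminal pathway builds the membrane attack complex from C5 (encoded by Hc), C6, C8 and C9, among others. Of its 6 members here, 5 had a negative log2 fold change and 0 had an unadjusted p under 0.05 by edgeR, while DESeq2 called 0 and C9 had an unadjusted p under 0.05. C6 had 514, 438 and 271 CPM in knockout livers, against 575, 413 and 586 CPM in WT livers, a log2 fold change of -0.36 ± 0.23 (SE). C9, which forms the pore, had 974, 1109 and 708 CPM in knockout livers, against 1299, 1053 and 1225 CPM in WT livers (-0.36 ± 0.17, SE). In both genes knockout replicate 3 was the lowest library and WT replicate 2 lay within the knockout range. C8a, the C8 alpha chain, had 1175, 1046 and 913 CPM in knockout livers, against 1350.4, 1062 and 1428 CPM in WT livers (-0.29 ± 0.15, SE). C8b, its neighbour on chromosome 4, had 592, 834 and 444 CPM in knockout livers, against 727, 667 and 759.6 CPM in WT livers (-0.20 ± 0.20, SE). Knockout replicate 3 was lowest for both, and both overlapped. Hc had 1500.0, 1329.9 and 1066 CPM in knockout livers, against 1553, 1239 and 1586 CPM in WT livers (-0.17 ± 0.16, SE), with the same lowest library. Without knockout replicate 3 the log2 fold changes were -0.14 for C6, -0.19 for C9, -0.20 for C8a, -0.0085 for C8b and -0.04 for Hc. Without knockout replicate 2 that of C8b was -0.47, and without knockout replicate 1 those of C6 and Hc were -0.57 and -0.28. Per kilobase of exon, the C8 chains C8a, C8b and C8g averaged 287 ± 36.0, 278 ± 87.9 and 297 ± 41.7 CPM per kilobase in knockout livers (SD, n = 3). In WT livers they averaged 352 ± 53.1, 321 ± 21.0 and 293 ± 26.3 CPM per kilobase (SD, n = 3), so the chains lay within each other's spread in the knockout.

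Among the 20 coagulation members, 10 had a positive and 10 a negative log2 fold change, and the groups were apart in 1, against 20.7% of all genes. Without knockout replicate 3 the signs were 16 positive and 4 negative, the negative ones being Fga, Fgb, Fgg and Cpb2. F7, which starts the extrinsic pathway with tissue factor, was the member whose groups were apart. It had 132, 158 and 128 CPM in knockout livers, against 114, 118 and 114 CPM in WT livers, a log2 fold change of 0.27 ± 0.10 (SE, edgeR adjusted p = 0.247). Without knockout replicate 2, its highest library, the log2 fold change was 0.17 and the unadjusted edgeR p 0.0935. F10, next to F7 on chromosome 8 and activated by it, had 471, 460.0 and 406 CPM in knockout livers and 459, 469 and 446 CPM in WT livers. F5, the cofactor of activated F10, had 817, 853 and 674 CPM in knockout livers, against 635, 686 and 686 CPM in WT livers (0.22 ± 0.12, SE). Its first and second knockout libraries were above every WT library, and the third was within their range. F9, the factor lacking in haemophilia B, had 264, 309.9 and 267 CPM in knockout livers and 271, 245 and 249 CPM in WT livers (0.14 ± 0.10, SE), with overlap. F2, prothrombin, had 1572 to 2085 CPM in knockout livers and 1754 to 1929 CPM in WT livers.

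The contact system had 4 positive log2 fold changes of 4. The neighbours F11 and Klkb1 encode the related proteases factor XI and plasma prekallikrein. F11 had 175, 202 and 131 CPM in knockout livers and 153, 143 and 150.1 CPM in WT livers (0.18 ± 0.15, SE). Klkb1 had 304, 275 and 236 CPM in knockout livers and 221, 241 and 255 CPM in WT livers (0.19 ± 0.12, SE). In both, knockout replicates 1 and 2 were above the WT range and replicate 3 was not. Without knockout replicate 2 the log2 fold change of F11 was 0.04, and without knockout replicate 1 that of Klkb1 was 0.10. F12, the contact protease factor XII, had 437 to 615 CPM in knockout livers and 503 to 539.9 CPM in WT livers. Kng1, the precursor of bradykinin, had 1866 to 2066 CPM in knockout livers and 1862 to 2017 CPM in WT livers.

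The 3 fibrinogen genes, adjacent on chromosome 3, had negative log2 fold changes with overlapping groups. Fga had 5399, 5348 and 3671 CPM in knockout livers, against 5841, 5121 and 5369 CPM in WT livers (-0.18 ± 0.18, SE). Fgb had 4570.0, 5021 and 4055 CPM in knockout livers, against 5822, 4822 and 4988 CPM in WT livers (-0.20 ± 0.16, SE). Fgg had 3672, 4049.9 and 3047 CPM in knockout livers, against 5050.4, 3904 and 4159.9 CPM in WT livers (-0.28 ± 0.17, SE). Knockout replicate 3 was lowest and WT replicate 1 highest for each. Without knockout replicate 3 the log2 fold changes of Fga, Fgb and Fgg were -0.02, -0.12 and -0.18, and with the clock score as a covariate they were -0.08, -0.06 and -0.10. F13b, the carrier chain of the fibrin-crosslinking factor XIII, had 284 to 323 CPM in knockout livers and 258 to 306 CPM in WT livers. Of the anticoagulants, Serpinc1 (antithrombin) had 2075 to 2649 CPM in knockout livers and 2250.0 to 2362 CPM in WT livers. Serpind1 (heparin cofactor II) had 673 to 820.4 CPM in knockout livers and 741 to 755 CPM in WT livers. The 4 anticoagulants, which include Proc (protein C) and Pros1 (protein S), overlapped between genotypes, at log2 fold changes from -0.02 to 0.12. Cpb2, which protects fibrin from plasmin, had 380.3, 424 and 339 CPM in knockout livers and 451, 412 and 411 CPM in WT livers (-0.16 ± 0.11, SE), with overlap. Plg, plasminogen, had 2471 to 3464 CPM in knockout livers and 2947 to 3180.2 CPM in WT livers, and its product's inhibitor Serpinf2 had 798 to 1150.5 CPM in knockout livers and 1031 to 1118 CPM in WT livers, both with overlap.

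The promoter of Fgb (chr3:83049814-83050113, minus strand), from the same source, is shown as that of a hepatocyte-made member. Capitals mark ATTAAC, the reverse complement of GTTAAT, a core of the site bound by the hepatocyte factor HNF1.
Fgb: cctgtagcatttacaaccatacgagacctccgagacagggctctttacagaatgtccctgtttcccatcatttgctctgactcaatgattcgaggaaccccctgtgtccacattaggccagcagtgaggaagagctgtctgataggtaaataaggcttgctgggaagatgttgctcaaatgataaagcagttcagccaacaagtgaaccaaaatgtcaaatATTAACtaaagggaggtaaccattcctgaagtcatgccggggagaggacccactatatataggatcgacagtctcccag
GTTAAT, searched on both strands, was in 10 of 31 windows of the members other than C1q and in 7.1% of the 32851 windows. In Fgb it lay at bases -29 to -24. The copies of GAGGAA in the Fgb window are left in lower case. TGCTGAC, CAAAGTCC and TATAAA were searched as well. They were in 4, 0 and 4 of the 31 windows and in 4.67%, 1.42% and 13.6% of the 32851 windows. Here too a match of letters is no evidence of binding.

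A p that misses the threshold does not show equal levels. The 95% interval of the log2 fold change lay within a 1.5-fold difference in either direction for 32 of the 39 members other than C1q. It reached beyond for Mbl2, C6, C8a, C8b, C9, Fga and Fgg. For the 22 members outside the naming rule, log2 fold changes ran from -0.13 to 0.12, with SE of 0.09 to 0.17, all 22 overlapped, and the lowest edgeR adjusted p was 0.706.

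Knockout replicate 3 stood apart for the members other than C1q. It was the lowest of the 6 libraries in 29 of 39, 74.4%, against 18.7% of all tested genes. Their mean log2 level relative to the WT mean was 0.05, 0.05 and -0.25 in knockout replicates 1 to 3 and 0.05, -0.04 and -0.0056 in WT replicates 1 to 3. Terminal pathway genes were at -0.09, -0.06 and -0.59 in knockout livers and 0.09, -0.17 and 0.07 in WT livers. Hepatocyte markers were at 0.24, 0.07 and 0.02 in knockout livers and -0.06, 0.09 and -0.03 in WT livers, so knockout replicate 3 was not below the WT range for these. With all libraries, 24 of the 39 had a negative and 15 a positive log2 fold change. Without knockout replicate 3 these were 13 and 26, and the median was 0.05. Then 9 of 42 members had an unadjusted p under 0.05, against 15.4% of all genes in that fit, namely the C1q genes and Mbl1, lower, and F5, F7, F11, Klkb1 and Proc, higher, and 0 passed edgeR's adjustment. Without it C1qa, C1qb and C1qc had log2 fold changes of -0.72, -0.86 and -0.80. Scaling by upper quartile or by total counts alone gave 30 lower and 9 higher, with the median of all genes at -0.04 and -0.05.

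**Figure D4:**
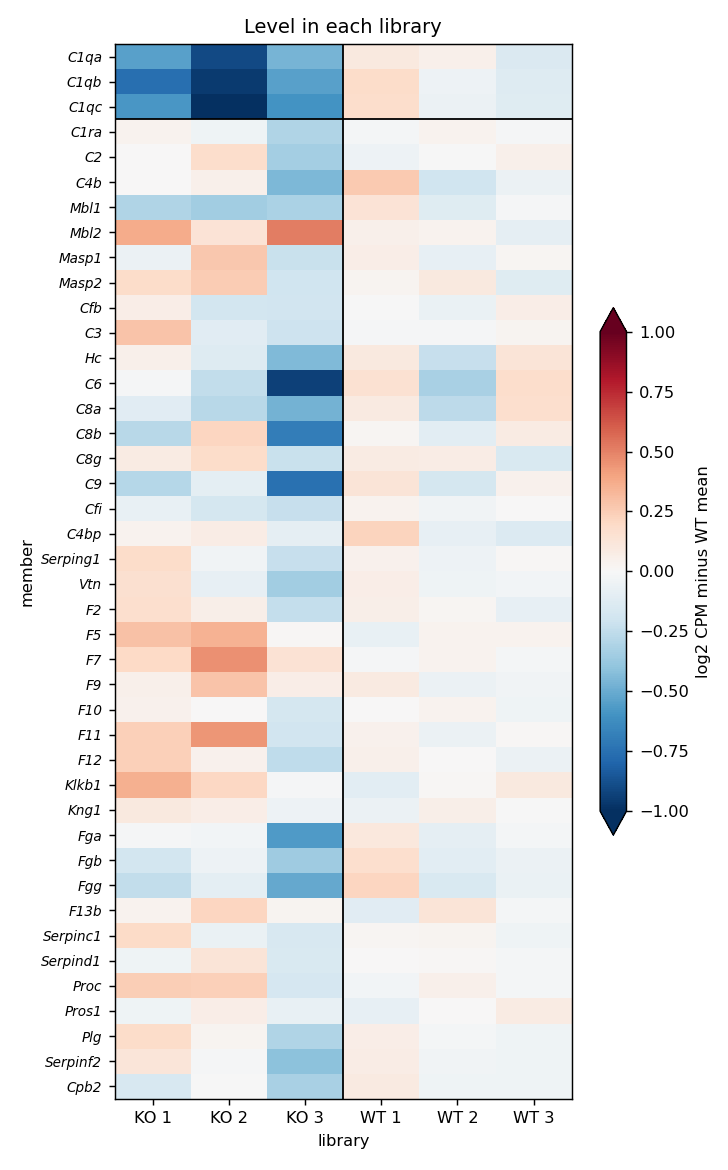
Log2 CPM minus the WT mean for each of the 42 tested members (rows) in 3 knockout and 3 WT libraries (columns). The C1q genes are low in all knockout libraries, and 29 of the other 39 members have their lowest value in knockout replicate 3.

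Further genes of the cascades were read from lists. Among 15 tested complement receptors and membrane regulators the median log2 fold change was -0.25, with 3 lower and 0 higher at an unadjusted p under 0.05, against 7.35% of all genes lower and 8.1% higher. None passed over all genes by edgeR, and DESeq2 called 1, Vsig4, lower, against 1.61% of all genes lower. Vsig4, a Kupffer cell receptor for C3b, had 26.4, 22.7 and 35.2 CPM in knockout livers and 43.0, 42.3 and 40.9 CPM in WT livers (-0.58 ± 0.15, SE). Itgb2, the beta chain of complement receptor 3, had 5.59, 4.53 and 8.15 CPM in knockout livers and 12.3, 10.4 and 8.37 CPM in WT livers (-0.76 ± 0.23, SE), and adjusting for the clock score put its log2 fold change at -0.50. Calr, calreticulin, was at -0.42 ± 0.15 (SE). All 3 were apart between the genotypes. Among 14 further complement proteins the median was -0.01, with 2 lower, 14.3% against 7.35% of all genes, at an unadjusted p under 0.05. None passed by edgeR, and DESeq2 called both, against 1.61% of all genes lower. Cfp, properdin, which stabilises the C3 convertase, had 19.8, 16.0 and 22.05 CPM in knockout livers and 30.5, 29.6 and 28.8 CPM in WT livers (-0.62 ± 0.13, SE, edgeR adjusted p = 0.0842). Fcna, a ficolin of macrophages, had 51.9, 48.4 and 51.6 CPM in knockout livers and 72.8, 65.2 and 62.9 CPM in WT livers (-0.40 ± 0.09, SE, edgeR adjusted p = 0.101). Neither overlapped between genotypes, and Vsig4 and Fcna are also among the Kupffer markers.

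Among 27 further coagulation and fibrinolysis genes the median was -0.09, with 3 lower and 2 higher at an unadjusted p under 0.05, in all 18.5% of the list, near the 15.4% of all genes. None passed by edgeR, and DESeq2 called 2, Adamts13 and Fgl2, against 3.41% of all genes. Adamts13, the protease that trims von Willebrand factor, had 8.95, 10.1 and 10.6 CPM in knockout livers and 5.95, 5.05 and 5.14 CPM in WT livers (0.87 ± 0.14, SE, edgeR adjusted p = 0.0587). Fgl2, a membrane prothrombinase, had 3.03, 3.17 and 4.47 CPM in knockout livers and 7.12, 8.28 and 6.46 CPM in WT livers (-1.04 ± 0.20, SE, edgeR adjusted p = 0.0736). Adamts13 was higher and Fgl2 lower in every knockout library than in any WT library. F3, tissue factor, had 5.16, 8.90 and 6.33 CPM in knockout livers and 4.89, 3.88 and 5.14 CPM in WT livers (0.55 ± 0.23, SE), and without knockout replicate 2 its log2 fold change was 0.31. F2r, a thrombin receptor, was at -0.37 ± 0.13 (SE).

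Hepatocytes also secrete acute phase proteins, whose levels shift in inflammation. Among 24 tested acute phase genes the median was -0.11, with 4 lower and 1 higher at an unadjusted p under 0.05, in all 20.8% of the list against 15.4% of all genes. None passed by edgeR, and DESeq2 called 3, Orm1, Hpx and Apcs, all lower, against 1.61% of all genes lower. Orm1, alpha-1-acid glycoprotein, had 429, 702 and 484 CPM in knockout livers and 1007, 704 and 958 CPM in WT livers (-0.72 ± 0.21, SE). Hpx, hemopexin, had 3746, 3193 and 3078 CPM in knockout livers and 5011, 4212 and 4854 CPM in WT livers (-0.49 ± 0.15, SE). Both were without overlap. Apcs, serum amyloid P, was at -0.66 ± 0.19 and Saa4, a constitutive serum amyloid, at 0.63 ± 0.21 (SE). Saa2 was the other lower gene, at -2.84 ± 0.95 (SE), with overlap. It had 5.63, 17.03 and 9.33 CPM in knockout livers and 182.4, 7.90 and 37.86 CPM in WT livers. Saa1 had 20.17, 179.7 and 32.31 CPM in knockout livers and 430.6, 25.44 and 146.4 CPM in WT livers. Both were highest in WT replicate 1 and, among knockout livers, in replicate 2. The part of this pattern in other differences was not tested. Without WT replicate 1 Apcs was at -0.41, with the clock score as a covariate it was at -0.30, and without knockout replicate 2 Saa4 was at 0.35.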

How the data were processed

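Deposited values were read counts, 1 table per liver library, with a whole number for each gene symbol and unnormalized, as the authors left them. Tools listed in the submitters' processing notes are HTSeq, TopHat2 2.0.8b and CASAVA 1.8.2, beside the builds hg19 and mm9, without roles. No annotation or strand setting is stated, so where genes overlap, reads may be left out as ambiguous or counted for the wrong gene. Rows naming no gene were left out: reads outside genes were 9.65% to 12.5% and ambiguous reads 0.594% to 0.662% of uniquely placed reads. Multiply placed alignments numbered 1.49 to 2.65 per gene count and are not counted for genes.

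In R 4.3.3, edgeR 4.0.16 kept 12522 genes (filterByExpr, minimum count 10), scaled them by TMM and fitted genotype alone in a quasi-likelihood model, with 2-sided tests and Benjamini-Hochberg adjustment over all genes. Standard errors were derived from the F statistic. CPM used TMM-scaled library sizes, and log2 CPM a prior count of 2. The test was checked on counts simulated from its own fitted dispersions, with independent genes and no clock or single-library effect. Its behaviour under such effects was not checked. Exon lengths were unions of GENCODE M21 coding-gene exons on GRCm38, another build than in the notes, so levels per kilobase are approximate. Members and lists were chosen with earlier results of these data known, so lists have counts and medians but no test. Members given in full were the C1q genes, those with an unadjusted p under 0.05 and those of largest absolute log2 fold change, 20 in all, and lists gave up to 4 genes of lowest unadjusted p under 0.05. Other genes with values by library were chosen after their values were seen. Alternatives were 3 scalings, 2 filters, DESeq2 1.42.0, limma-voom (limma 3.58.1), robust estimation, a replicate block, a clock score covariate, removal of the 20 highest genes, and each library left out.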

Additional observations from a re-analysis of the deposited data

How the results depend on the processing

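C1qa, C1qb and C1qc were lower in knockout livers under the 17 alternatives run, and their median minus that of the other members, -0.71, ran from -0.85 to -0.53. Their calls depended on the method. The 3 genes were the 3 members called with DESeq2, at -0.63, -0.75 and -0.73, and with no filter, at -0.63, -0.75 and -0.73 (edgeR adjusted p of 0.0499, 0.0275 and 0.0399). Of all genes, 3.41% were called with DESeq2 and 0.793% of 16764 with no filter, where 43 members were tested. C1qb was the 1 member of 42 called with robust estimation, at -0.75, beside 0.543% of all genes. Leaving out 1 library gave -0.72 to -0.51 for C1qa, -0.86 to -0.65 for C1qb and -0.81 to -0.60 for C1qc, with 0 members called and 4 to 9 of 42 at an unadjusted p under 0.05, beside 10.9% to 15.4% of all genes. That number, 6 with all libraries, was 10 with total counts only, beside 14.4% of all genes. Genes called over all genes, 27, numbered 133 with no filter, 427 with DESeq2, 68 with robust estimation, 1 with the clock score and 3 to 36 with 1 library left out: 3 without knockout replicate 2, 13 without knockout replicate 3, 5 without WT replicate 1 and 4 without WT replicate 2. Deviations from the genotype mean had r = -0.08, -0.10 and -0.04 between samples with the same replicate number (1, 2 and 3). Between samples with different numbers, r ran from -0.05 to 0.12. The values gave no sign of pairing by number, but so few samples, centred on their own mean, cannot exclude it. With the replicate block 1 gene and 0 members were called, and C1qa, C1qb and C1qc were at -0.64, -0.75 and -0.74. Other named genes were newly called 20 times, in the same direction, 12 of these with DESeq2 and 6 with no filter. The cause of these differences was not tested. The lowest count of a tested member was 484.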
